A study of Mus musculus with 12 samples.

Results

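Cldn2, the gene of claudin 2, and 8 other tight junction genes of the hepatocyte were followed across 12 microarrays of cultured mouse liver cells. Members were the probes whose RefSeq accession maps to Cldn1, Cldn2, Cldn3, Cldn12, Cldn14, Ocln, F11r, Tjp1 or Cgn. They came to 11 of the 41174 probes on the array and covered 8 of the 9 genes, out of 17016 genes with a named probe. Cldn1, Ocln and Tjp1 had 2 probes each, the other 5 genes had 1, and the probes of a gene are numbered from the brighter to the dimmer. No probe was matched to Cgn, the gene of the plaque protein cingulin, which was not analysed here. Cldn2 was picked for its low signal in cells that received a hairpin against TLS, so its values in that comparison are given as a description without a test.

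Tight junctions join neighbouring hepatocytes around the bile canaliculus and keep bile apart from blood. Claudins cross the membrane repeatedly and set which ions and how much water pass between cells: claudin 2 forms pores for small cations and water, whereas claudins 1, 3 and 14 are known as barrier-forming. Occludin and JAM-A are further membrane proteins of the junction, and ZO-1, the product of Tjp1, is a scaffold that ties them to the actin cytoskeleton. In rodent liver, claudin 2 is known to be more abundant towards the central vein than around the portal vein.

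The cells were primary hepatocytes of C57BL/6 mice, either lacking PGC-1alpha (-/-) or carrying it (+/+). PGC-1alpha coactivates transcription of genes for mitochondria and gluconeogenesis. An adenovirus brought in either a hairpin RNA directed at TLS (shTLS) or a control hairpin (control). The groups were -/- shTLS, -/- control, +/+ shTLS and +/+ control, with 3 arrays in each. There were 3 mice of each genotype, 6 in all, every mouse providing an shTLS and a control culture, and same-numbered arrays of a genotype are from the same mouse. All cultures were kept on collagen-coated plates in Williams E medium with serum, 100 nM dexamethasone and 100 nM insulin. They were infected overnight at a multiplicity of 5, so the controls too carried virus, and were harvested 24 h after infection. All shTLS values come from infection with this vector, and no other hairpin was used here.

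The arrays had 22753 to 26694 probes well above background, the scanner software's call that a spot exceeds its surroundings. The Ppargc1a probe read 8.67 to 9.71 on -/- arrays and 8.23 to 10.99 on +/+ arrays; where it lies relative to the deleted part is not given in the sources used here, so it checks nothing about the genotype. Processed signals had a 75th percentile of 344 to 635 on shTLS arrays, against 810.4 to 1064 on control arrays, and the log2 values below are quantile normalized, which removes that gap. The arrays with the same number shared 1 of 3 slides, and a group lay at 1 fixed slide position, so that its effect and that of the position cannot be told apart.

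The promoter windows of 3 members are shown because Cldn2 chose the set, Cldn14 rose and Cldn3 fell with shTLS. They are RefSeq's, of assembly GRCm38.p6, run from 250 bases before to 50 bases after an annotated start, and are written 5′ to 3′ along the gene. Cldn2 is at chrX:139800558-139800857 on the plus strand. The Cldn14 window is at chr16:94008788-94009087 on the minus strand and belongs to 1 of 3 windows listed for that gene; the array does not say which start is used. Cldn3 is at chr5:134985964-134986263 on the plus strand. Capitals mark every match, on either strand, to the motifs searched.
Cldn2: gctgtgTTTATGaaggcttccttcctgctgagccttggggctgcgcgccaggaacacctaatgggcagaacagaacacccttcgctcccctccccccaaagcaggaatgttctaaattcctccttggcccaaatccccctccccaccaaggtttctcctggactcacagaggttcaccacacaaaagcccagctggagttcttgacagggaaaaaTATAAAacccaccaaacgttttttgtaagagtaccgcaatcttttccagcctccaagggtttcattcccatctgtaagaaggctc
Cldn14: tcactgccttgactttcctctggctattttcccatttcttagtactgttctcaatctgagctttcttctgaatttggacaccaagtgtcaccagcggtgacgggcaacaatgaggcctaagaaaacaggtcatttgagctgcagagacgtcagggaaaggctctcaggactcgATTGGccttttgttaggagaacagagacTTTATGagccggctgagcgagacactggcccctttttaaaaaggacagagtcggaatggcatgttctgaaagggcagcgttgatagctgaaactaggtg
Cldn3: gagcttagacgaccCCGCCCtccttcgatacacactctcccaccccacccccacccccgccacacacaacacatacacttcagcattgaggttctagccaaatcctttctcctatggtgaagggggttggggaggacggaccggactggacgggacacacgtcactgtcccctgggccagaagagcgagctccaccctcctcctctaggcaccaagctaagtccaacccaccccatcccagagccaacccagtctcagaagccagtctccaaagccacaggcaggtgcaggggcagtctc

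Both strands were searched for 7 motifs. Of 32544 distinct windows of the same length, 13.6% held the TATA box, searched as TATAAA. The CCAAT box was in 37.4%, the GC box (GGGCGG) in 35.9% and the Cdx-type motif (TTTATG) in 11.9%. An HNF1-type motif, searched as GTTAAT, was in 7.13%. A STAT-type motif, searched as TTCNNNGAA, was in 8.33%. An AP-1-type motif, searched as TGANTCA, was in 7.79%. The Cldn2 window held a TATA box at position -35 and a Cdx-type motif at -244, counted from the start. The Cldn14 window held a CCAAT box on the opposite strand at -77 and a Cdx-type motif at -49, and the Cldn3 window held a GC box on the opposite strand at -236. No matches overlapped in the windows shown. The Cldn14 windows not shown held CCAAT boxes but no Cdx-type motif, with a STAT-type motif at -120 in 1 and an HNF1-type motif at -6 in the other. A match describes these letters and is no evidence of binding.

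Cldn2 had the lowest averaged difference between shTLS and control of all 24981 tested probes, which is the value it was chosen on. With shTLS it read 8.58, 6.82 and 4.73 in -/- cultures, against 11.99, 10.87 and 8.31 in -/- control cultures. In +/+ cultures it read 5.61, 3.66 and 3.38 with shTLS, against 11.36, 7.52 and 8.06 with control. Every mouse had less Cldn2 signal in its shTLS culture than in its control culture. The +/+ groups did not overlap, whereas in -/- cultures the shTLS array of mouse 1 lay above the control array of mouse 3. The share of all probes without overlap within a genotype was not counted.

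Within a mouse, Cldn2 was 10.7-, 16.6- and 11.9-fold lower with shTLS in -/- cells and 53.9-, 14.5- and 25.6-fold lower in +/+ cells, the last against an shTLS array on which the probe was not well above background. The averaged log2 difference was -4.22. The level itself varied widely between mice of a group: replicate 1 was the highest array in all 4 groups, and the highest and lowest array differed 14.4-fold in -/- shTLS cultures, 12.8-fold in -/- control cultures, 4.69-fold in +/+ shTLS cultures and 14.3-fold in +/+ control cultures. The probe was well above background on all arrays except that of mouse 3 in +/+ shTLS cultures. Leaving out any 1 array moved the averaged difference between -4.74 and -3.63, and a background correction that compresses low signals (normexp) gave -2.72. In these bulk cultures, fewer cells that contain the RNA and less of it per cell cannot be told apart.

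**Figure D1:**
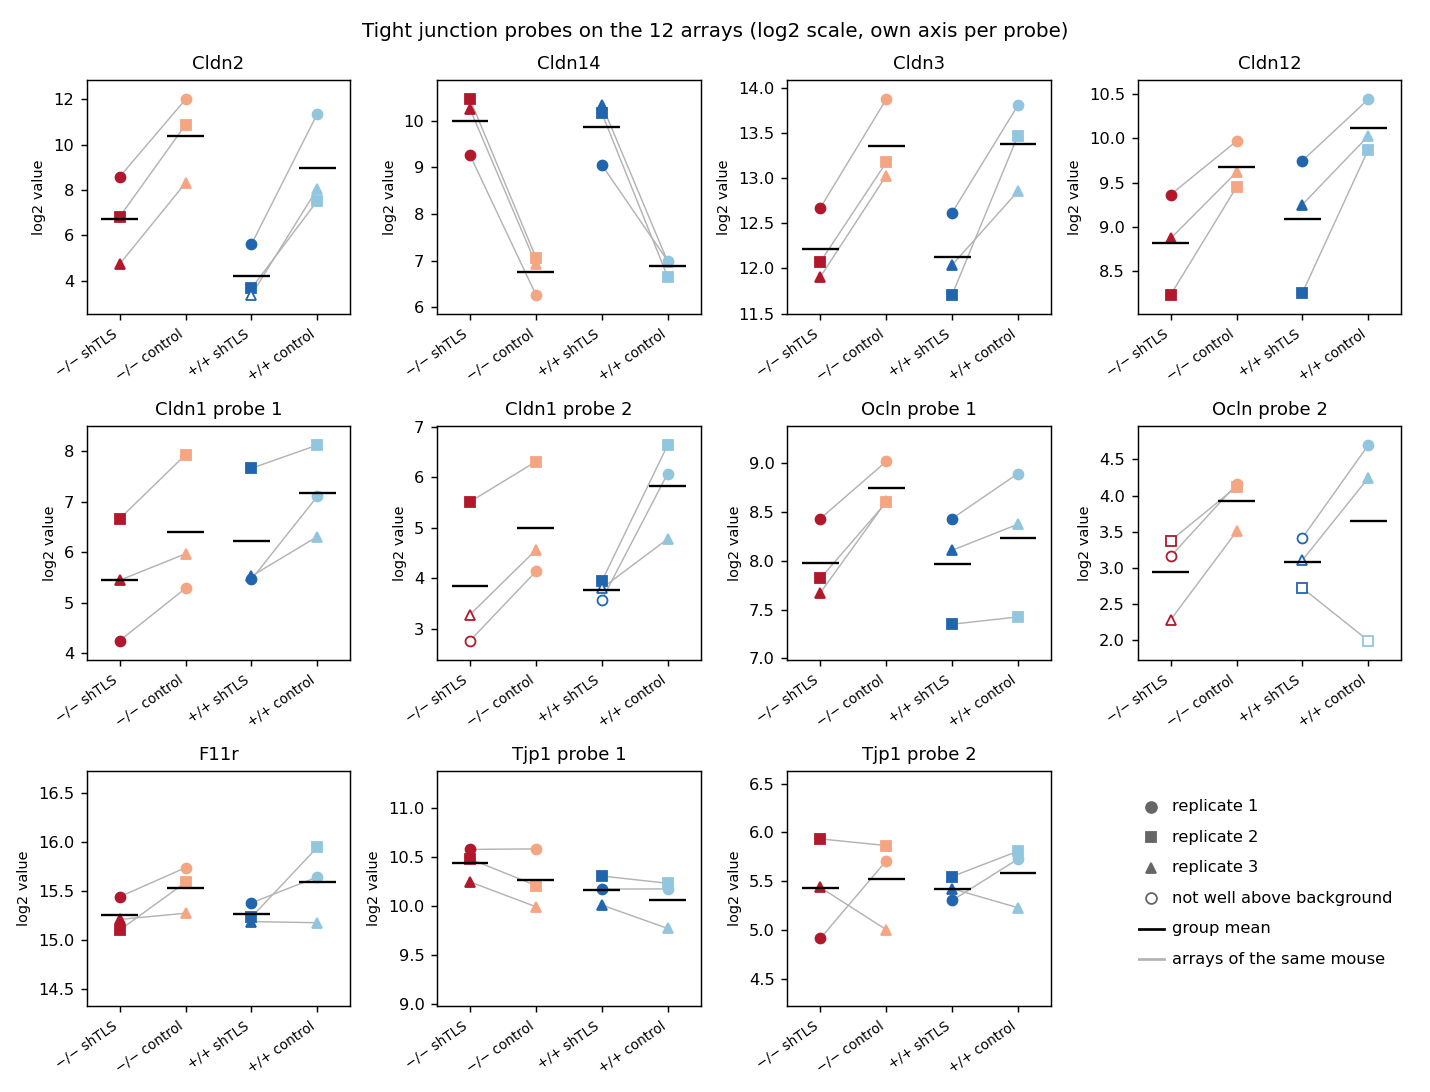
Log2 value of each tight junction probe on the 12 arrays, by group (-/- shTLS, -/- control, +/+ shTLS, +/+ control), with an axis of its own per probe; grey lines join the arrays of 1 mouse, bars are group means, and open symbols are not well above background. Cldn2 and Cldn3 were lower and Cldn14 was higher in the shTLS culture of every mouse, whereas F11r and Tjp1 probe 1 stayed within a narrow range.

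Of the 10 member probes other than Cldn2, 2 passed the test for shTLS averaged over genotypes, Cldn14 upwards and Cldn3 downwards, where 7.79% of all tested probes passed (limma, adjusted p under 0.05 over all 24981). The claudins thus moved in both directions. Cldn14, best known from its loss in hereditary deafness and from calcium handling in the kidney, read 9.26, 10.46 and 10.25 in -/- shTLS cultures, against 6.27, 7.07 and 6.93 in -/- control cultures. In +/+ cultures it read 9.06, 10.17 and 10.35 with shTLS, against 6.99, 6.65 and 6.98 with control. All 6 shTLS arrays lay above all 6 control arrays, as for 3.5% of tested probes.

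Cldn14 rose 8.65-fold with shTLS, a log2 difference of 3.11 (95% interval 2.46 to 3.76, SE 0.29, adjusted p = 0.000152), and stood at rank 163 from the top of 24981 probes. It passed in each genotype, with 3.24 (SE 0.42, adjusted p = 0.00298) in -/- cells and 2.98 (SE 0.42, adjusted p = 0.00605) in +/+ cells. It was the 1 member probe other than Cldn2 to pass in -/- cells, where 0.777% of probes passed, and the 1 to pass in +/+ cells, where 0.997% did. Its log2 difference within a mouse lay between 3.00 and 3.40 in -/- cells and between 2.06 and 3.52 in +/+ cells. Within a group its arrays differed 2.45-fold at most.

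Cldn3, a barrier claudin found along the whole lobule in rat liver, was bright on all arrays. It read 12.67, 12.07 and 11.91 in -/- shTLS cultures, against 13.87, 13.17 and 13.03 in -/- control cultures. In +/+ cultures it read 12.62, 11.71 and 12.04 with shTLS, against 13.81, 13.47 and 12.85 with control. All 6 shTLS arrays lay below all 6 control arrays, which held for 2.3% of tested probes.

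Cldn3 fell 2.29-fold with shTLS averaged over genotypes, a log2 difference of -1.20 (95% interval -1.77 to -0.62, SE 0.26, adjusted p = 0.0224). The 6 mice gave -1.20, -1.10 and -1.12 in -/- cells and -1.19, -1.76 and -0.82 in +/+ cells. Within a genotype the difference was -1.14 in -/- cells (adjusted p = 0.266) and -1.26 in +/+ cells (adjusted p = 0.15); both passed once the replicate number was a block in the model (adjusted p = 0.0154 and 0.00718). The averaged call was lost without any 1 of 6 arrays: -/- shTLS 2 or 3, -/- control 1 or 2, +/+ shTLS 3 or +/+ control 1. Its highest adjusted p was then 0.0631, and the difference stayed between -1.33 and -1.07.

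Cldn12, a claudin that lacks the motif with which most others bind ZO proteins, read 9.36, 8.24 and 8.87 in -/- shTLS cultures, against 9.97, 9.45 and 9.62 in -/- control cultures. In +/+ cultures it read 9.75, 8.26 and 9.25 with shTLS, against 10.44, 9.87 and 10.02 with control. The groups of a genotype did not overlap, for which no share of all probes was counted. The shTLS culture was the lower in all 6 mice, as for 19.0% of tested probes. The averaged log2 difference was -0.94 (95% interval -1.57 to -0.31), which missed the threshold (adjusted p = 0.0679) and passed with the replicate number or the mouse as a block (adjusted p = 0.00418 and 0.0084).

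Cldn1, a barrier claudin and in human liver an entry factor of hepatitis C virus, had its probes lower in the shTLS culture of all 6 mice, and neither passed. Probe 1 read 4.25, 6.67 and 5.44 in -/- shTLS cultures, against 5.29, 7.94 and 5.97 in -/- control cultures. It read 5.46, 7.66 and 5.53 in +/+ shTLS cultures, against 7.11, 8.12 and 6.31 in +/+ control cultures. Groups overlapped in both genotypes, since mice differed by up to 6.27-fold within a group, and here replicate 2 was the highest array in all 4 groups. The averaged log2 difference of probe 1 was -0.95 (95% interval -2.29 to 0.39, adjusted p = 0.323), and -1.60 for probe 2 (95% interval -2.78 to -0.42, adjusted p = 0.0861). With the replicate number as a block, both passed (adjusted p = 0.0234 and 0.0106), and with the mouse as a block too (adjusted p = 0.0115 and 0.0046). Probe 2 was well above background on 1 of 3 shTLS arrays in either genotype and on all control arrays, and without -/- shTLS replicate 2 it passed at an adjusted p of 0.0428.

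Ocln, the gene of occludin, read 8.43, 7.82 and 7.67 on probe 1 in -/- shTLS cultures, against 9.02, 8.60 and 8.61 in -/- control cultures. It read 8.43, 7.35 and 8.11 in +/+ shTLS cultures, against 8.89, 7.42 and 8.37 in +/+ control cultures. All 6 mice had the lower value with shTLS, but only the -/- groups were free of overlap, for which no share of all probes was counted. The averaged log2 difference was -0.52 (95% interval -1.16 to 0.12, adjusted p = 0.266), and it passed only with the mouse as a block (adjusted p = 0.021) among the block fits. Probe 2 was not well above background on any shTLS array. Its log2 value averaged 2.94 in -/- shTLS cultures and 3.93 in -/- control cultures, a 1.98-fold lower mean with shTLS (adjusted p = 0.544). It averaged 3.08 in +/+ shTLS cultures and 3.64 in +/+ control cultures, a 1.48-fold lower mean (adjusted p = 0.661), with 2 of 3 control arrays above background. These folds compare group means and are no lower limits, since they leave out the spread between mice, and neither difference passed. Averaged over genotypes, probe 2 differed by -0.78 (adjusted p = 0.257), and mouse 2 of the +/+ genotype went the other way (0.73). Without its control array, which was below background, the averaged difference was -1.19 and passed (adjusted p = 0.0277).

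F11r, the gene of JAM-A, an immunoglobulin-type adhesion protein, read 15.44, 15.10 and 15.21 in -/- shTLS cultures, against 15.74, 15.59 and 15.27 in -/- control cultures. In +/+ cultures it read 15.38, 15.23 and 15.19 with shTLS, against 15.64, 15.95 and 15.17 with control. The groups overlapped, and 5 of 6 mice had the lower value with shTLS. The averaged log2 difference of -0.30 (95% interval -0.71 to 0.10) did not pass (adjusted p = 0.298), and no array had a saturated spot.

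Tjp1, the ZO-1 scaffold, was the member closest to 0. Probe 1 read 10.58, 10.48 and 10.25 in -/- shTLS cultures, against 10.59, 10.21 and 9.99 in -/- control cultures. It read 10.17, 10.31 and 10.01 in +/+ shTLS cultures, against 10.18, 10.23 and 9.77 in +/+ control cultures. The averaged log2 difference was 0.14 (95% interval -0.25 to 0.52, adjusted p = 0.633) for probe 1 and -0.13 (95% interval -0.64 to 0.38, adjusted p = 0.743) for probe 2. The intervals leave room for changes of up to 1.44- and 1.56-fold.

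**Figure D2:**
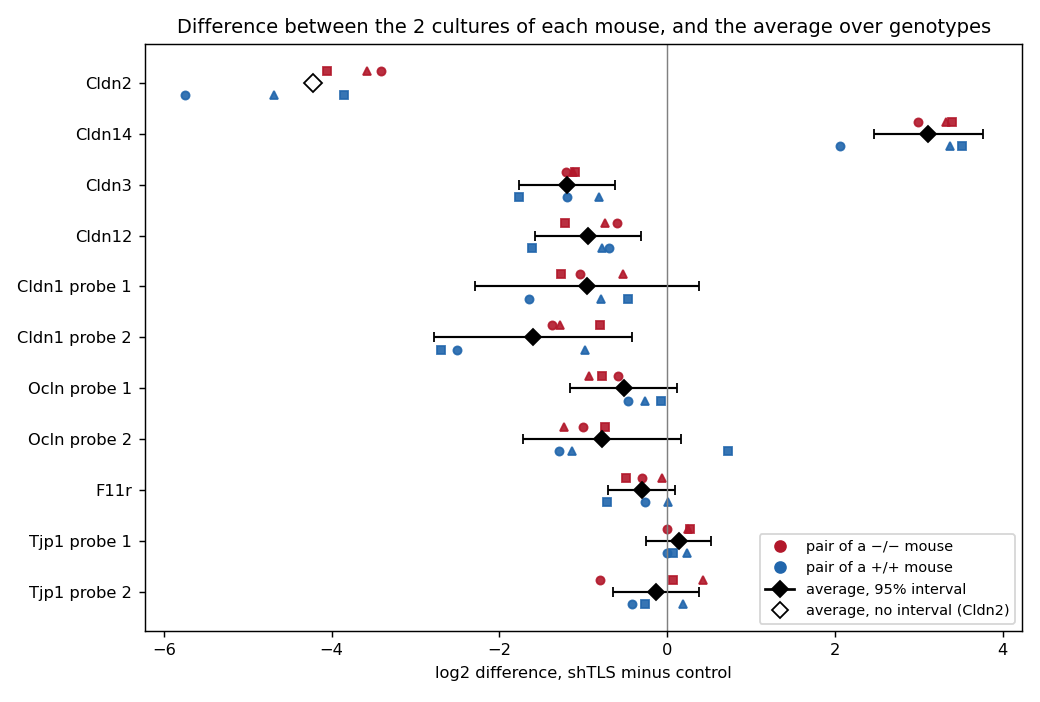
Log2 difference of shTLS minus control for each probe: small symbols are the 3 -/- mice (red) and the 3 +/+ mice (blue), diamonds the average over genotypes with its 95% interval, and Cldn2 carries none because it was chosen on this value. The pairs of Cldn2 lie between -5.75 and -3.41, those of Cldn14 between 2.06 and 3.52, and those of Tjp1 probe 1 between -0.01 and 0.27.

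Set together, 8 of the 10 member probes other than Cldn2 had a negative averaged difference. Of these 10, 5 were lower in all 6 mice, as were 19.0% of all tested probes, and 1 was higher in all 6, as were 18.8%. Cldn1 probe 2 and Ocln probe 2, both among the negative ones, met the test filter only through control groups, which favours a lower value with shTLS. Cldn1, Ocln and Tjp1 each enter with 2 probes, so the counts are of probes and not of separate genes. With the replicate number as a block 5 of the 10 passed, where 28.8% of all probes did, and with the mouse as a block 6 passed, where 33.0% did. In -/- cells 2 passed with the number and 3 with the mouse as a block, where 5.97% and 8.13% of all probes did. In +/+ cells 4 passed with either block, where 12.5% and 16.0% of all probes did.

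The direction of the smaller differences depended on the scaling. Signals scaled on the array's spike-in controls, in place of quantile normalization, moved the median of all tested probes to -0.82, against -0.02 in the deposited values. Tjp1 probe 1 then stood at -0.78 (adjusted p = 0.0291), which turns its direction, and lay close to that median. F11r stood at -0.94, Tjp1 probe 2 at -0.81, and the Ocln probes at -1.39 each. Cldn2 at -4.99, Cldn1 at -1.70 and -2.22, Cldn3 at -2.02 and Cldn12 at -1.85 lay below the median, and Cldn14 at 2.27 (adjusted p = 0.000745) lay above it. In all, 9 of the 10 probes passed under spike-in scaling, where 55.4% of all probes did, 52.6% downwards. In +/+ cells 4 passed under that scaling, where 21.4% of all probes did. With normexp Cldn2 stood at -2.72, against -4.22 in the deposited values, Cldn1 probe 2 at -0.35, against -1.60, and Cldn14 at 2.33, against 3.11. With the 75th percentile as scale, Tjp1 probe 2 stood at 0.11, above 0, and F11r at -0.02.

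**Figure D3:**
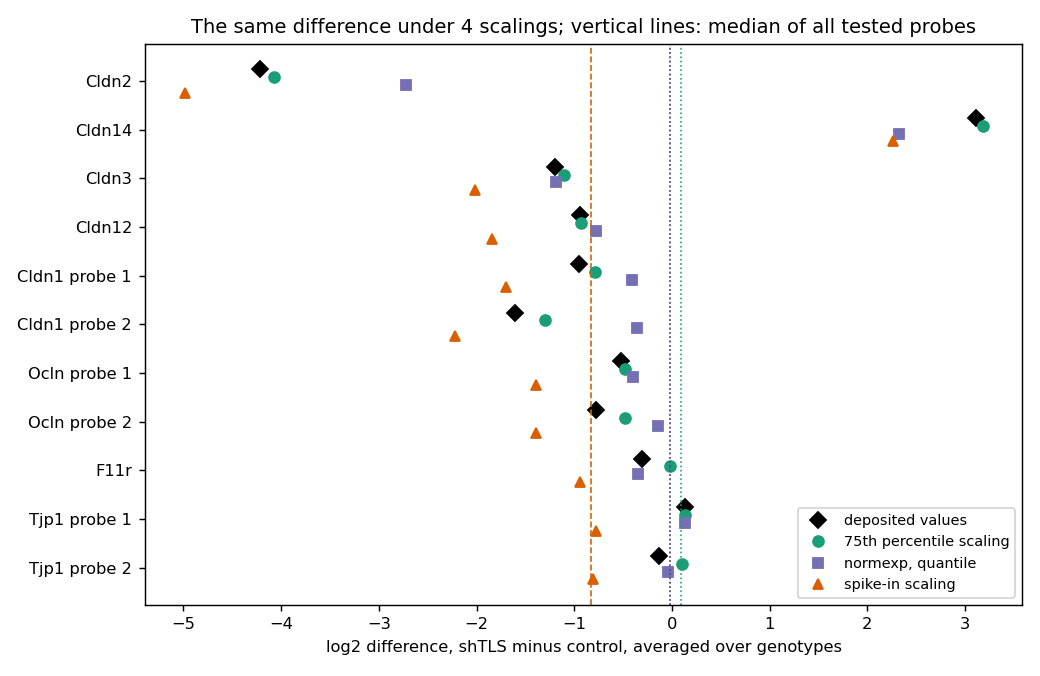
Averaged log2 difference of shTLS minus control for each probe under 4 ways of scaling the signals, with vertical lines at the median of all tested probes under each (-0.82 for spike-in scaling). Cldn14 lies above and Cldn2, Cldn3 and Cldn12 lie below the median in all 4, whereas Tjp1 and F11r lie close to it.

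PGC-1alpha genotype was a comparison in which Cldn2 had not been chosen. Cldn2 was higher in the -/- than in the +/+ culture of the same number in all 6 same-numbered comparisons. These set different animals against each other, and each mouse enters with both vectors, so the 6 are not independent. The share of all probes with that pattern was not counted. With shTLS it averaged 6.71 ± 1.92 in -/- cultures and 4.22 ± 1.21 in +/+ cultures (SD, n = 3 each), and with control 10.39 ± 1.89 in -/- cultures and 8.98 ± 2.08 in +/+ cultures. The difference did not pass: 2.50 with shTLS (95% interval -0.32 to 5.31, unadjusted p = 0.0767), 1.42 with control (95% interval -1.40 to 4.23, unadjusted p = 0.292) and 1.96 averaged over vectors (95% interval -0.13 to 4.04, unadjusted p = 0.0636), each with an adjusted p of 1.00. The order of the group means was thus -/- control, +/+ control, -/- shTLS and +/+ shTLS, and the genotypes, neighbours within a vector, did not differ beyond the spread between mice. The arrays of the other neighbours, +/+ control and -/- shTLS, overlapped. Under the alternative settings, array removal aside, the Cldn2 genotype difference averaged over vectors lay between 1.13 and 2.07. Its lowest adjusted p by limma was then 0.114, so the size of the adjusted p depended on the setting and none passed.

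None of the 11 member probes passed for genotype by limma with shTLS, with control or averaged over vectors, where 0.0721%, 0.0801% and 0.0881% of all probes passed, and 0 of the 11 had an unadjusted p under 0.05 in any of these. Cldn14 differed by 0.01 averaged over vectors (95% interval -0.87 to 0.88) and Cldn3 by 0.04 (95% interval -0.66 to 0.73). Differences of 1.84-fold for Cldn14 and 1.66-fold for Cldn3 thus remain within the intervals. Cldn1 probe 1 was the lowest at -0.77 (95% interval -2.20 to 0.65).

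**Figure D4:**
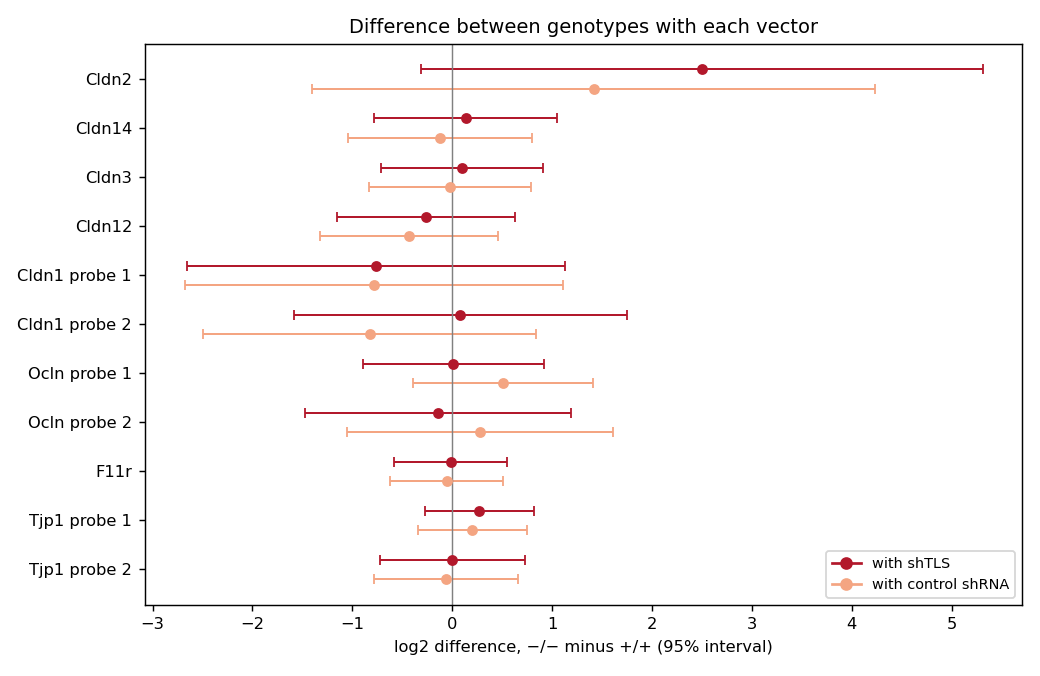
Log2 difference of -/- minus +/+ for each probe, with shTLS (red) and with control shRNA (pale), each with its 95% interval. All intervals include 0, and that of Cldn2 with shTLS runs from -0.32 to 5.31.

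Whether the effect of shTLS depended on PGC-1alpha was tested as the difference between both effects. No member probe passed by limma, as none of all 24981 did (0.0%), with 64 probes (0.256%) at an unadjusted p under 0.05 and 0 members among them. This fit had no mouse block, so the spread between mice stayed in its error and hardly any probe could pass. The absence of calls therefore says little of the members. With the mouse as a block, 0 member probes passed by limma too. For Cldn2 the difference of effects was 1.08 (95% interval -2.90 to 5.06), and it turned to -0.16 with normexp and to -0.11 without +/+ control replicate 1; for Cldn14 it was 0.26 (95% interval -1.04 to 1.55) and for Cldn3 it was 0.12 (95% interval -1.03 to 1.26). These intervals come from the fit without a block and so include the spread between mice, and intervals with the mouse as a block are not given here. As they stand, they are too wide to show that the effects were alike.

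The wider claudin list held 25 genes, of which 20 had a matched probe and 11 were tested. Without Cldn2, which was chosen on this comparison, the other 10 had a median log2 difference of -0.52 with shTLS. Over all 19034 tested genes, of which 12809 had a symbol and 6225 are accessions or probes without one, the median was -0.02 and 8.17% passed. Of the 10 claudins Cldn14 rose, Cldn3 fell and 8 did not pass; with the replicate number as a block 2 rose and 4 fell, where 28.8% of all probes passed. Of 14 other membrane proteins of the junction, 12 were tested and 1 fell, Igsf5, the gene of the junctional adhesion protein JAM4 (-0.85, SE 0.15, adjusted p = 0.00825). The largest differences by size in that list, Jam3 at 1.15 (SE 0.69, adjusted p = 0.298) and Bves at 0.97 (adjusted p = 0.34), did not pass. The median of the list was -0.29.

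Of 30 plaque and polarity genes, 25 were tested and none passed by limma, where 8.17% of all genes did. At an unadjusted p under 0.05, 2 were higher and 2 lower, and the share of all probes at that threshold is not given here. With the replicate number as a block 1 rose and 3 fell, where 28.8% of all probes passed. Their median was -0.07. Tjp3, the ZO-3 scaffold, had the largest difference at -1.68 (adjusted p = 0.111; with the replicate number as a block 0.00312), followed by Cgnl1, the relative of cingulin, at -0.88 (adjusted p = 0.187; with the block 0.00377). Both were lower in all 6 mice, whereas Tjp1 was not. In the genotype comparisons and in the difference of effects, 0 genes of these 3 lists passed by limma, and 0 had an unadjusted p under 0.05.

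**Figure D5:**
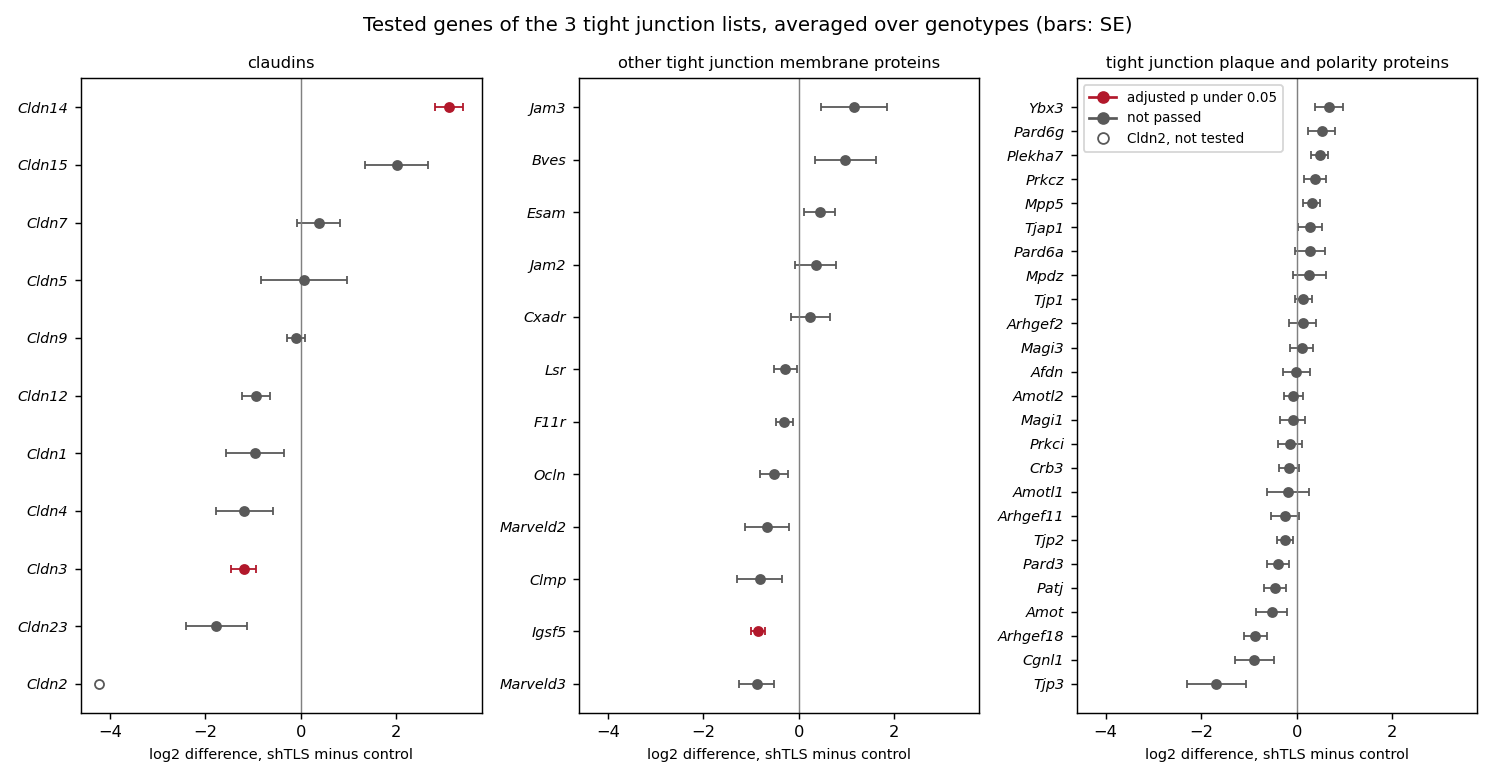
Averaged log2 difference of shTLS minus control, with its SE, for the tested genes of the claudin, other membrane protein and plaque lists; red genes passed at an adjusted p under 0.05 and Cldn2 (open) was not tested. Cldn14 at 3.11 and Cldn2 at -4.22 lie at opposite ends of the claudins, and the plaque genes lie between -1.68 and 0.68.

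Over the 12 arrays, which share 2 vectors and 3 slides, Cldn2 correlated most with Cldn3 among the members (Pearson r = 0.886), then with Ocln (0.754 and 0.693), Cldn12 (0.634) and F11r (0.616). It correlated with Cldn14 at -0.804. With group means taken out, r was 0.802 for Cldn3 and -0.523 for Cldn14, so that arrays of a group with more Cldn2 also had more Cldn3. This was not particular to Cldn3: r was then 0.741 and 0.684 for the Ocln probes, 0.628 and 0.132 for the Tjp1 probes, 0.509 for Cldn12 and 0.430 for F11r. For Cldn1 it was -0.246 on probe 1 and -0.038 on probe 2. Same-numbered arrays share a slide, and the part of slide and mouse in these values was not tested. The 10 named probes most like Cldn2 over the 12 arrays had r from 0.968 to 0.976. They belonged to Nt5c, Zmym3, Jade2, Acp2, Letmd1, Sidt2, Erbb2, Nudt16l1, Bckdk and B4gat1, and their averaged differences with shTLS lay between -2.14 and -0.83. These correlations describe 12 arrays and carry no test.

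Markers of liver cell types were read beside these values. Alb, the albumin gene that defines hepatocytes, read 16.86 to 17.75 on all arrays. Of 11 tested hepatocyte markers 0 passed by limma and 2 were lower at an unadjusted p under 0.05; 10 had a negative difference with shTLS, with a median of -0.62. Of 11 tested macrophage markers 0 passed by limma, 1 had an unadjusted p under 0.05 and all 11 had a negative difference with shTLS; with the replicate number as a block 3 fell, where 28.8% of all probes passed. Their mean log2 level was 7.51 to 10.45 in -/- shTLS cultures, 8.39 to 11.26 in -/- control cultures, 6.41 to 8.56 in +/+ shTLS cultures and 6.67 to 9.66 in +/+ control cultures. The Kupffer cell gene Clec4f was well above background on 8 of 12 arrays. The group medians of these levels were 8.12, 10.93, 7.04 and 7.92 in the same order, and so were higher in -/- cultures, as the Cldn2 means were. Of 8 tested cholangiocyte markers 0 passed, 3 had an unadjusted p under 0.05 and 5 were lower with shTLS; with the block 3 fell. Their mean levels were 7.96 to 9.07 in -/- shTLS cultures, 8.67 to 9.71 in -/- control cultures, 8.47 to 9.06 in +/+ shTLS cultures and 8.88 to 9.63 in +/+ control cultures. Krt19, the keratin that defines bile duct cells, reached 14.89. Endothelial and stellate markers had 0 of 10 and 0 of 8 tested genes past the threshold and 0 at an unadjusted p under 0.05, with Pecam1 well above background on 12 arrays and Des on 10. With shTLS, 8 of the 10 endothelial markers had a positive difference and 6 of the 8 stellate markers a negative one. Averaged over vectors, 11 of 11 macrophage, 7 of 8 stellate and 8 of 10 endothelial markers were higher in -/- cultures. This held for 5 of 11 hepatocyte and 4 of 8 cholangiocyte markers, and 0 of all these passed by limma. The share of all probes at an unadjusted p under 0.05 is not given for the shTLS comparison, so the marker counts at that threshold single out no cell type. The part of these cells in the tight junction values was not tested.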

How the data were processed

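RNA from 12 cultures was measured on 1-colour (Cy3) Agilent mouse arrays. The array files came from Feature Extraction 10.1.1.1, per the submitters' processing notes. Per the file headers, these deposited files hold background-subtracted intensity values on a linear scale, with flags per spot as other columns. The deposited table holds log2 values, for which, per the series' design text, the authors raised signals under 1 to that value and quantile normalized the arrays. These log2 values were used, and 259 values whose spots were all flagged were set to missing, 0 of them in members. Values recomputed from the array files correlated with the table at 0.998 or more per array. Arrays give no read depth, and the number of arrays limits the precision.

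Probes were named through RefSeq accessions with an annotation of assembly GRCm38.p6 (24375 of 41174 matched 1 symbol). Testing required a signal well above background on every array of some group and 2 or more values in each group, which all 11 member probes passed. This filter keeps probes that are bright in 1 group only. The test was limma 3.58.1 in R 4.3.3 on the 4 group means of all 12 arrays, two-sided, with Benjamini-Hochberg adjustment over 24981 probes and a threshold of 0.05. The averaged genotype comparison took the mouse as a random block (statmod 1.5.0, correlation 0.585). In lists a gene is its brightest tested probe. Simulated data of the averaged shTLS comparison over 24981 probes gave back 98% of changes of 4 and 64% of changes of 2 on the log2 scale. The simulated noise was independent between arrays, without shared mice or slides, and smaller changes were not simulated. These rates thus say nothing of the smaller differences that most members had.

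The labels pair same-numbered arrays of a genotype by mouse. Deviations from the group mean correlated by 0.456 to 0.673 between the arrays of a mouse. Between same-numbered arrays of different genotypes, which are different mice on 1 slide, they correlated by 0.218 to 0.648. Arrays with different numbers correlated by at most 0.104, and mouse and slide cannot be told apart here. Averaged shTLS results of members that change with the number or mouse as a block carry the blocked value. Averaged list counts that change carry that with the number. Within a genotype, Cldn3 carries it by name and the other members are only counted. Further alternatives were other scalings, filters, 1 probe per gene, only the groups compared, no mouse block and leaving out each array. The array files hold no mean signal, so normexp (offset 50) used the median signal in its place.

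The members and the 14 gene lists were chosen with earlier results of these data known. Named are all members; from each list other than markers up to 3 rises and 3 falls that passed or, where fewer than 2 passed, the 2 largest differences by size; and the 10 probes most like Cldn2 by Pearson correlation. The lists cover claudins, other membrane proteins and plaque proteins of tight junctions, adherens junctions, gap junctions and desmosomes, the canalicular membrane, pericentral and periportal genes, factors reported to act on claudin genes, and markers of 5 liver cell types. The level of the gene that the hairpin targets is not reported here. The mice were separate animals, so p-values measure the spread between mice and cultures.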

Additional observations from a re-analysis of the deposited data

How the results depend on the processing

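Counts of member probes that passed, out of 10 without Cldn2, depended on the pairing and the scaling. With the replicate number as a block 2 instead of 1 passed for shTLS in -/- cells, 4 instead of 1 in +/+ cells and 5 instead of 2 averaged over genotypes; with the mouse as a block 3, 4 and 6 passed. With spike-in scaling 4 passed in +/+ cells and 9 averaged over genotypes, and Tjp1 probe 1 turned to -0.78. Leaving out 1 array gave 1 to 3 averaged over genotypes and 1 throughout within a genotype; it was 1 without -/- control 1 or 2, -/- shTLS 3, +/+ control 1 or +/+ shTLS 3. Without -/- shTLS 2, Cldn3 no longer passed and Cldn1 probe 2 did, without +/+ shTLS 1 Cldn12 passed (adjusted p = 0.0432), and without +/+ control 2 Ocln probe 2 did (adjusted p = 0.0277). Fitting 1 probe per gene, no filter, stricter filtering, recomputed values, normexp, the 75th percentile or only the groups compared kept these counts within 1.5 times. The counts of 0 for genotype and for the difference of effects stayed at 0 in all alternatives run; the mouse could not be a fixed block for genotype, since each mouse has 1 genotype. Fewer genes fell in 12 of 21 alternatives among periportal genes, 11 among canalicular genes, 10 among adherens junction genes and 8 among claudins, Cldn2 counted. The Cldn2 difference of effects, which did not pass, changed sign with normexp (-0.16) and without +/+ control 1 (-0.11), and those of Cldn14 and Cldn3 reached -0.15 and -0.11 when 1 array was left out. Cldn14 passed and rose in all 21 alternatives of the averaged comparison. Over all results and alternatives, 1572 values were counted as unchanged, among them differences that changed sign without passing. A further 101 were counted as stronger, 52 as weaker, and 1 without a test moved beyond its spread. The 1 counted as reversed was Tjp1 probe 1 under spike-in scaling, which passed in the other direction. Causes were not tested. Signals near background limit Cldn2 in +/+ shTLS cultures, Cldn1 probe 2 and Ocln probe 2.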

Other observations

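Other junction and zonation lists were counted for shTLS averaged over genotypes, by limma over all probes, where 8.17% of all genes passed, and 28.8% of all probes with the replicate number as a block. Counts near these shares say nothing particular of a list. The share of all probes at an unadjusted p under 0.05 is not given for this comparison, so counts at that threshold say nothing particular either. Mal2, which carries proteins to the canalicular membrane, fell by 1.92 log2 units (SE 0.39, lower in all 6 mice, adjusted p = 0.0166) and Ceacam1, an adhesion protein of that membrane, by 0.95 (SE 0.24, adjusted p = 0.0372). They were the 2 of 18 tested canalicular genes that passed, and 7 of the 18 were lower at an unadjusted p under 0.05; with the replicate number as a block 7 fell. Of 12 adherens junction genes 1 fell, Ajuba, a LIM protein that binds alpha-catenin (-1.76, adjusted p = 0.0473, 1 value missing); with the block 1 rose and 6 fell. The next largest in that list was Jup, the gene of plakoglobin, at -0.89 (adjusted p = 0.056; with the replicate number as a block 0.00772). Of 9 gap junction and desmosome genes 0 passed and 1 was higher at an unadjusted p under 0.05; with the block 1 rose and 1 fell. The largest there were Gjb1 at -1.10 (adjusted p = 0.218) and Gjc1 at 1.05 (adjusted p = 0.174).

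Of 16 pericentral genes, the zone in which Cldn2 is known to be high, 0 passed, with 1 higher and 3 lower at an unadjusted p under 0.05; with the replicate number as a block 1 rose and 5 fell. Ahr stood at -1.58 (adjusted p = 0.0765) and Axin2 at 1.49 (adjusted p = 0.113). Of 11 periportal genes 1 fell (2 with the block), Ass1 of the urea cycle (-0.65, adjusted p = 0.0441; 0 fell in 12 of 21 alternatives), while Arg1 stood at -1.11 (adjusted p = 0.534) and Igf1 at -1.06 (adjusted p = 0.171). Of 16 factors reported to act on claudin genes 1 rose, the cytokine gene Il6 (3.22, SE 0.46, adjusted p = 0.00286), and Grhl2 stood at 2.06 (adjusted p = 0.266). With the replicate number as a block 1 factor rose and 1 fell, where 28.8% of all probes passed. Of 11 hepatocyte markers 2 fell with the block.

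Outside the members, and chosen after their values were seen, Cldn15 and Cldn23 had the largest differences among the other claudins. Cldn15, a pore-forming claudin of the intestine, stood at 2.01 (SE 0.67, adjusted p = 0.0844; with the replicate number as a block 0.00484) and was higher in all 6 mice. Cldn23 stood at -1.77 (SE 0.64, adjusted p = 0.108; with the block 0.022) and was lower in all 6 mice.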
